A study of Mus musculus with 6 samples.

Results

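A set of 10 genes of peroxisomal oxidation was examined in kidneys of mice with TGFbeta-driven fibrosis: the oxidases Hao2, Hao1, Dao, Ddo, Pipox and Paox, the alpha-oxidation enzymes Phyh and Hacl1, the racemase Amacr and the membrane transporter Abcd3. A gene counted as measured where at least 1 row of the table carried its symbol and no other. On that rule 9 of the 10 had a gene value, drawn from 107 of 212097 rows and standing among 20416 genes, and Paox, the polyamine oxidase, was not analysed here. The set was chosen by measured values, namely the differences between the same 2 groups on the same arrays, so the differences of these genes are a description and support nothing by themselves.

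The arrays fall into 2 groups of 3, B6-TGFbeta (replicates 1, 2 and 3) and CBAxB6-TGFbeta (replicates 4, 5 and 6), with every difference given as CBAxB6-TGFbeta minus B6-TGFbeta. Every animal carries TGFbeta and is labelled with induced renal fibrosis, and no kidney without TGFbeta is among the arrays. A difference that the backgrounds had before fibrosis and a different response to TGFbeta therefore cannot be told apart. The genotype field adds WT to the B6 group and KO to the CBAxB6 group but names no deleted gene, and no promoter or cell type is named for the TGFbeta. These words divide the arrays as the backgrounds do, so a deleted gene and the background could not be told apart either. Cohorts were littermates of matched age and sex, per the labels, which give neither the age nor the sex. Nothing states that each array is a separate animal, so the p-values measure the spread between these arrays. The comparison asks how kidneys of the 2 groups, whose backgrounds the title sets apart by their sensitivity to fibrosis, differ in these genes.

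Peroxisomal oxidases pass electrons from a flavin directly to oxygen and release hydrogen peroxide, which catalase breaks down in the same organelle. Alpha-oxidation shortens fatty acids whose methyl branch blocks beta-oxidation, such as phytanic acid from the diet, by first hydroxylating and then cleaving the chain. Both run at high levels in the proximal tubule, the segment of the kidney that is richest in peroxisomes.

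The stretch before the transcript start is shown for the 2 hydroxyacid oxidases, whose differences lay furthest apart, and for Ddo and Pipox, oxidases of other substrates. Sequences are those of RefSeq on GRCm38.p6, 250 bases each, written 5′ to 3′ on the strand of the gene. Hao2 lies on the minus strand at chr3:98893231-98893480, Hao1 on the minus strand at chr2:134554353-134554602, Ddo on the plus strand at chr10:40629761-40630010 and Pipox on the minus strand at chr11:77893873-77894122. Capitals mark a match to the HNF1 half-site GTTAAT or to the nuclear receptor half-site AGGTCA, in either orientation.
Hao2: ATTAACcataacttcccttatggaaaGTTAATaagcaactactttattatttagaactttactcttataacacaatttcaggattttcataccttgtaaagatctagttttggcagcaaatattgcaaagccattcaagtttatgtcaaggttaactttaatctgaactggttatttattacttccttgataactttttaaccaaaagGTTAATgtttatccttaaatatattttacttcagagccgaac
Hao1: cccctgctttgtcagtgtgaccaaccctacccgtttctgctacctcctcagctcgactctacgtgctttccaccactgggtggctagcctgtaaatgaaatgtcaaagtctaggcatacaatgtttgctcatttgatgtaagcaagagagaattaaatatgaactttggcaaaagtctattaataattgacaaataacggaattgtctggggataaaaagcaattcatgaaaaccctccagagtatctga
Ddo: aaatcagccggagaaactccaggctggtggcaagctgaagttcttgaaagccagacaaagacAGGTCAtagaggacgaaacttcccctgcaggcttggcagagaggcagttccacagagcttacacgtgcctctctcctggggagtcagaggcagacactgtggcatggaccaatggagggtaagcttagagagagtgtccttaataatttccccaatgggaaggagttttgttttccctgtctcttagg
Pipox: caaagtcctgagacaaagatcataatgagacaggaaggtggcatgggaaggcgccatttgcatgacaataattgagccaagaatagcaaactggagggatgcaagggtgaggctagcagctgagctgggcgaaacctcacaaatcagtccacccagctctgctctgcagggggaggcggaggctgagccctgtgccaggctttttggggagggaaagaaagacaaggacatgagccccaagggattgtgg
The start used for Hao2 lies inside the gene record, whose outer end is at base 98895376 of the chromosome, so the stretch belongs to 1 of its transcript starts.

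Windows of 300 bases, 250 before and 50 after a start, were matched by symbol for 9 of the 10 genes (13 windows), all but Amacr. Hao2 held 3 matches to GTTAAT, beginning at bases -250, -224 and -42 from the start, and a match to these letters on either strand occurred in 7.10% of 32851 windows of all genes. Ddo held AGGTCA at base -188 and again at base 14 after the start, and Phyh and 1 of the 3 Dao windows held it once each, against 16.3% of all windows. Pipox and Abcd3 each held the HNF4 core CAAAGTCCA once, just after the start at bases 16 and 14, against 0.475% of all windows. No window of the set held a pair of AGGTCA half-sites with 1 base between them, which includes the single half-site and occurred in 13 windows of all genes, and none held TATAAA, found in 13.6%. GGGCGG, found in 35.7% of all windows, was present at Dao, Hacl1 and Paox. Base composition differed widely, from 32.3% G and C with 2 CpG at Hao2 to 76.3% with 42 CpG at the inner of the 2 Abcd3 starts, against medians of 52.7% and 7 over all windows. These matches describe letters in a window and were not set against the array values.

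The median log2 intensity of an array was 7.27 to 7.34, and Umod, the uromodulin gene of the kidney's thick limb, stood at 11.96 to 12.27 on every array. Several arrays stood apart in markers of other tissues. B6-TGFbeta replicate 2 had a mean of 8.36 over 8 fat genes, where the other arrays had 5.99 to 6.65, and Ucp1 of brown fat reached 10.93 there. In 7 adrenal genes it had 8.93 and B6-TGFbeta replicate 1 had 6.68, with 5.66 to 5.77 elsewhere. Albumin (Alb) stood at 9.45 in B6-TGFbeta replicate 2 and at 10.94 in CBAxB6-TGFbeta replicate 6, and at 6.00 to 6.29 on the other arrays. Results are therefore also given without these arrays, where the gene summary was recomputed from the arrays that remained. The part of these tissues in the results below was not tested.

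Across the set, 8 of the 9 measured genes had every CBAxB6-TGFbeta array below every B6-TGFbeta array, which was true of 13.4% of all genes. In the limma fit over all genes, with a threshold of 0.05 on p-values adjusted by the Benjamini-Hochberg method, Hao2, Dao, Ddo, Pipox and Abcd3 were called lower, no gene of the set was called higher, and Hao1, Phyh, Amacr and Hacl1 were not called. Of all genes, 4.57% were called lower and 3.08% higher, and nothing is read from the comparison because the same contrast chose the genes. The median log2 difference of the 9 genes was -0.48, and that of all genes 0.02. Without B6-TGFbeta replicate 2 limma called none of the 9 and 77 of all 20416 genes, and the median of the 9 was -0.48. At an unadjusted p under 0.05, 7 of the 9 were lower and 3268 of all genes passed in either direction. Without CBAxB6-TGFbeta replicate 6 limma called 3 of the 9 and 554 of all genes, and the median was -0.47. Without B6-TGFbeta replicate 1 it called none of the 9 and 59 of all genes, and the median was -0.38. At an unadjusted p under 0.05, 6 of the 9 were lower there and 2819 of all genes passed in either direction. In a fit added after the data were seen, the gene values of all 6 arrays were kept and 1 array was then left out. It called 3 genes of the set without B6-TGFbeta replicate 1 or 2 and 4 without CBAxB6-TGFbeta replicate 6. Of all genes it called 494, 979 and 1550 without B6-TGFbeta replicate 1, B6-TGFbeta replicate 2 and CBAxB6-TGFbeta replicate 6. In bulk kidney RNA, fewer cells of a type and less RNA per cell cannot be told apart, which holds for every difference below.

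**Figure D1:**
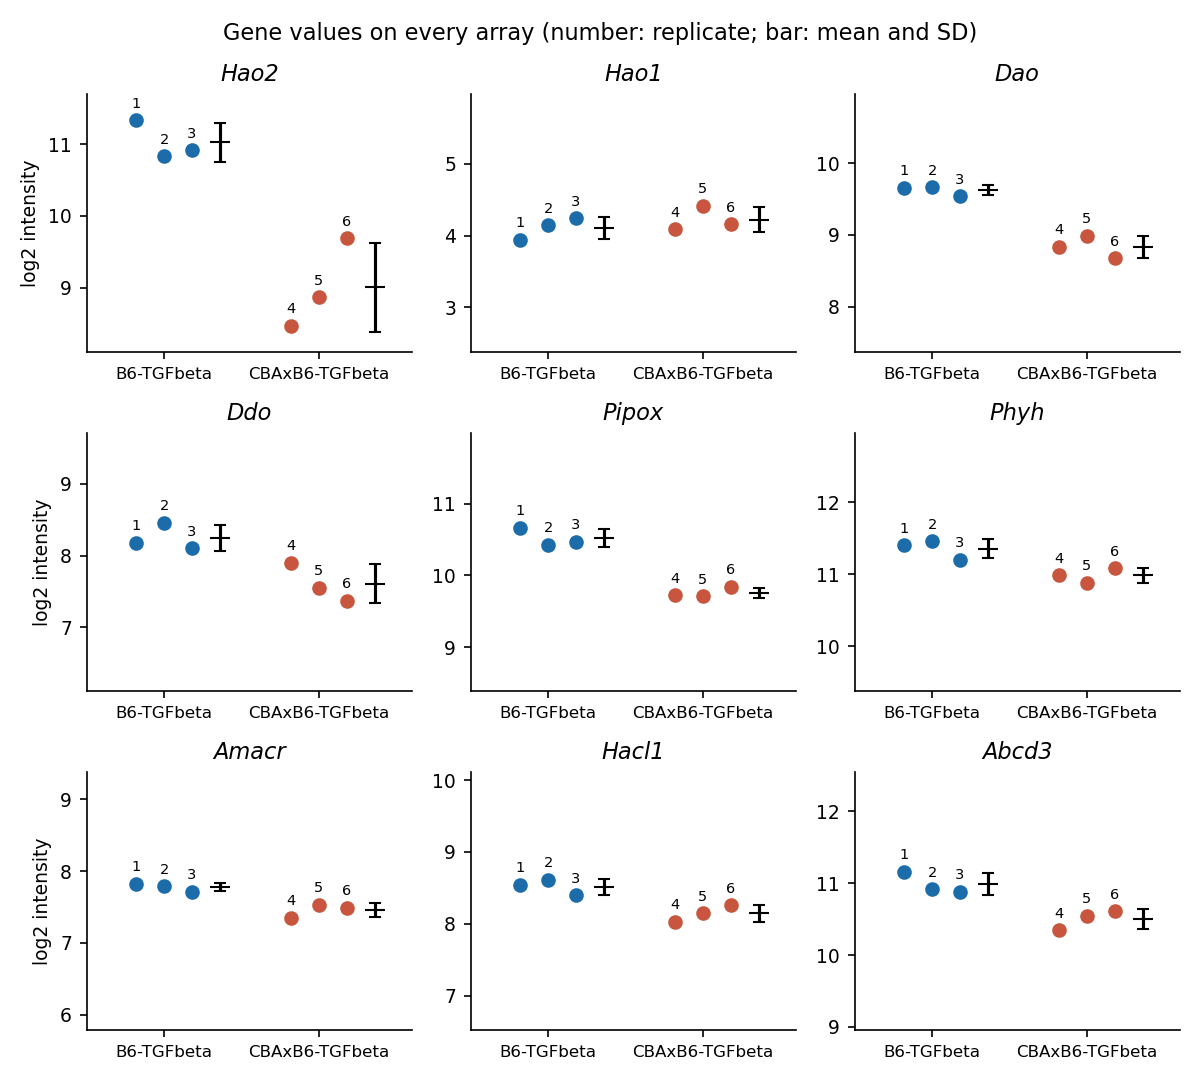
Gene value (log2 intensity, vertical axis) on each of the 6 arrays for the 9 measured genes, with points numbered by replicate and bars giving mean and SD of each group. Only Hao1 has overlapping groups, and Hao2 has the widest gap, between 9.69 in CBAxB6-TGFbeta replicate 6 and 10.83 in B6-TGFbeta replicate 2.

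Hao2 encodes the hydroxyacid oxidase of the kidney, which oxidises long-chain 2-hydroxy acids. Its log2 intensity was 11.33, 10.83 and 10.91 on the B6-TGFbeta arrays and 8.47, 8.87 and 9.69 on the CBAxB6-TGFbeta arrays. All 3 CBAxB6-TGFbeta kidneys lay below the B6 ones, by at least 1.14, and replicate 6, the array with the albumin signal, was the highest of the 3. Group means were 11.03 ± 0.27 and 9.01 ± 0.62 (SD, n = 3 each), which is a log2 difference of -2.02 (SE 0.27, 95% interval -2.63 to -1.40), or 4.04-fold lower. This was the largest difference of the set, and the spread within CBAxB6-TGFbeta was wider than for any other of the 9 genes, with a range of 1.21 against 0.13 to 0.53.

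Each of the 9 rows of Hao2 put all CBAxB6-TGFbeta arrays below all B6-TGFbeta arrays, an order found in 10.7% of all rows. The row differences of Hao2 ran from -2.73 to -1.10. The brightest row, at 12.13 in B6-TGFbeta, gave the smallest difference, and the dimmest, at 9.82 in B6-TGFbeta and 7.08 in CBAxB6-TGFbeta, the greatest. Summarised by its brightest row alone, the gene was therefore 2.14-fold lower and was not called. With 1 array left out in turn the difference stayed between -2.22 and -1.69, at -2.16 without B6-TGFbeta replicate 2, while the call was lost without replicate 1, 2, 3, 4 or 5. With B6-TGFbeta replicate 3 as the only B6 array the difference was -1.90.

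Hao1, the glycolate oxidase best known from liver, is the close relative of Hao2. It stood at 3.94, 4.14 and 4.24 in B6-TGFbeta and at 4.09, 4.41 and 4.16 in CBAxB6-TGFbeta. The groups overlapped, and the gene belonged to the dimmest 25% of genes on these arrays, for which the table gives no detection call. The log2 difference was 0.11 (SE 0.12), with a 95% interval of -0.17 to 0.39. Its 9 rows had means of 3.49 to 4.75 in B6-TGFbeta, 5 of them higher and 4 lower in CBAxB6-TGFbeta, from -0.35 to 0.65.

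Dao oxidises neutral and basic D-amino acids such as D-serine in the straight part of the proximal tubule. Its values were 9.66, 9.66 and 9.54 in B6-TGFbeta and 8.83, 8.99 and 8.68 in CBAxB6-TGFbeta. The groups were separated by 0.55, more than the range within either of them, which was 0.12 and 0.31. Means were 9.62 ± 0.07 and 8.83 ± 0.16 (SD, n = 3 each), which is a log2 difference of -0.79 (SE 0.11), 1.73-fold lower. All 13 rows had a lower mean in CBAxB6-TGFbeta, from -1.33 to -0.51, and 12 of them had no overlap. The difference lay between -0.85 and -0.68 with 1 array left out, at -0.75 without B6-TGFbeta replicate 2, and the call was lost without replicate 1, 2, 3 or 4.

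Ddo is the D-amino acid oxidase for the acidic substrates D-aspartate and D-glutamate. It read 8.18, 8.46 and 8.10 in B6-TGFbeta against 7.90, 7.55 and 7.37 in CBAxB6-TGFbeta. Only 0.20 separated the lowest B6-TGFbeta array from the highest CBAxB6-TGFbeta array, which here was replicate 4. Means of 8.25 ± 0.19 and 7.61 ± 0.27 (SD, n = 3 each) gave a log2 difference of -0.64 (SE 0.15), 1.55-fold lower. The rows disagreed more than those of Dao: 4 of 9 had no overlap, and differences ran from -1.63 to 0.02, with -1.25 on the brightest row. The difference lay between -0.80 and -0.47 when 1 array was left out, at -0.49 without B6-TGFbeta replicate 2, and no such fit called the gene.

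Pipox oxidises pipecolic acid, a product of lysine breakdown, and sarcosine. Its values of 10.67, 10.43 and 10.47 in B6-TGFbeta stood above the 9.73, 9.71 and 9.84 of CBAxB6-TGFbeta. The arrays of each group lay close together, within 0.24 and 0.13, and the groups were 0.58 apart. Means were 10.52 ± 0.13 and 9.76 ± 0.07 (SD, n = 3 each), and the log2 difference was -0.76 (SE 0.10), 1.69-fold lower. Every one of its 9 rows had the lower mean in CBAxB6-TGFbeta, from -1.14 to -0.23, and 8 had no overlap. The brightest row gave -0.53 and was not called, and the call was lost without B6-TGFbeta replicate 1, 2 or 3, with differences of -0.82 to -0.67 over all 6 arrays left out in turn and -0.82 without replicate 2.

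The alpha-oxidation enzymes differed less. Phyh, the phytanoyl-CoA hydroxylase that is lost in Refsum disease, stood at 11.40, 11.46 and 11.20 in B6-TGFbeta and at 10.98, 10.88 and 11.08 in CBAxB6-TGFbeta. The CBAxB6 arrays all lay below, with 0.12 between the groups, less than the range within either of them, which was 0.26 and 0.20. Its log2 difference was -0.37 (SE 0.11), and 4 of its 9 rows had no overlap. Hacl1, the lyase that cleaves the hydroxylated chain, read 8.54, 8.61 and 8.39 in B6-TGFbeta and 8.03, 8.14 and 8.26 in CBAxB6-TGFbeta. Its groups were 0.13 apart without overlap, with a log2 difference of -0.37 (SE 0.11). Of its 18 rows 16 had a lower mean in CBAxB6-TGFbeta but 3 had no overlap, and the rows ran from -0.88 to 0.37. Of all rows, 10.7% had every CBAxB6-TGFbeta array below every B6-TGFbeta array. Neither gene was called, but Phyh was with trended variances and with array weights, and Hacl1 with array weights. With 1 array left out the difference lay between -0.43 and -0.27 for Phyh and between -0.34 and -0.15 for Hacl1, at -0.30 and -0.15 without B6-TGFbeta replicate 2.

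Amacr turns the R form of branched-chain acyl-CoA into the S form that beta-oxidation accepts. It stood at 7.82, 7.79 and 7.71 in B6-TGFbeta and at 7.35, 7.53 and 7.49 in CBAxB6-TGFbeta. The groups did not overlap and were 0.18 apart. In 2 of 7 rows CBAxB6-TGFbeta lay below without overlap, against 10.7% of all rows. The log2 difference of -0.32 (SE 0.10) was not called, and the brightest row gave -0.06. With 1 array left out it lay between -0.38 and -0.11, the smallest being that without CBAxB6-TGFbeta replicate 4, and it was -0.20 without B6-TGFbeta replicate 2.

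Abcd3, known as PMP70, is the transporter that carries branched-chain acyl-CoA and bile acid precursors across the peroxisomal membrane. Its values were 11.16, 10.92 and 10.88 in B6-TGFbeta and 10.35, 10.55 and 10.61 in CBAxB6-TGFbeta. The groups were 0.27 apart, near the range within each group. Means were 10.99 ± 0.15 and 10.50 ± 0.14 (SD, n = 3 each), which is a log2 difference of -0.48 (SE 0.12), 1.40-fold lower. It had the most rows of the set, 24, and all of them had a lower mean in CBAxB6-TGFbeta, 18 with no overlap. The call was lost in each fit that left out 1 array, where the difference lay between -0.56 and -0.38, and on the brightest row, which gave -0.33. It was also lost with median centring, without the dimmer 50% of rows, and in 5 of the 6 fits that left out an array with the gene values of all 6 kept.

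Over all 107 rows of the 9 genes, 97 had a lower and 10 a higher mean in CBAxB6-TGFbeta. The share of all rows with a lower mean is not given here, so nothing is read from these counts. In 60 rows every CBAxB6-TGFbeta array lay below every B6-TGFbeta array, as in 10.7% of all rows, and in 1 row of Hao1 the order was the opposite. Tested row by row, 5 were called lower, 3 of Hao2, 1 of Dao and 1 of Ddo, where 0.351% of all rows were. The spread of the Hao2 rows shows that the size of the difference depended on the rows that were read.

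**Figure D2:**
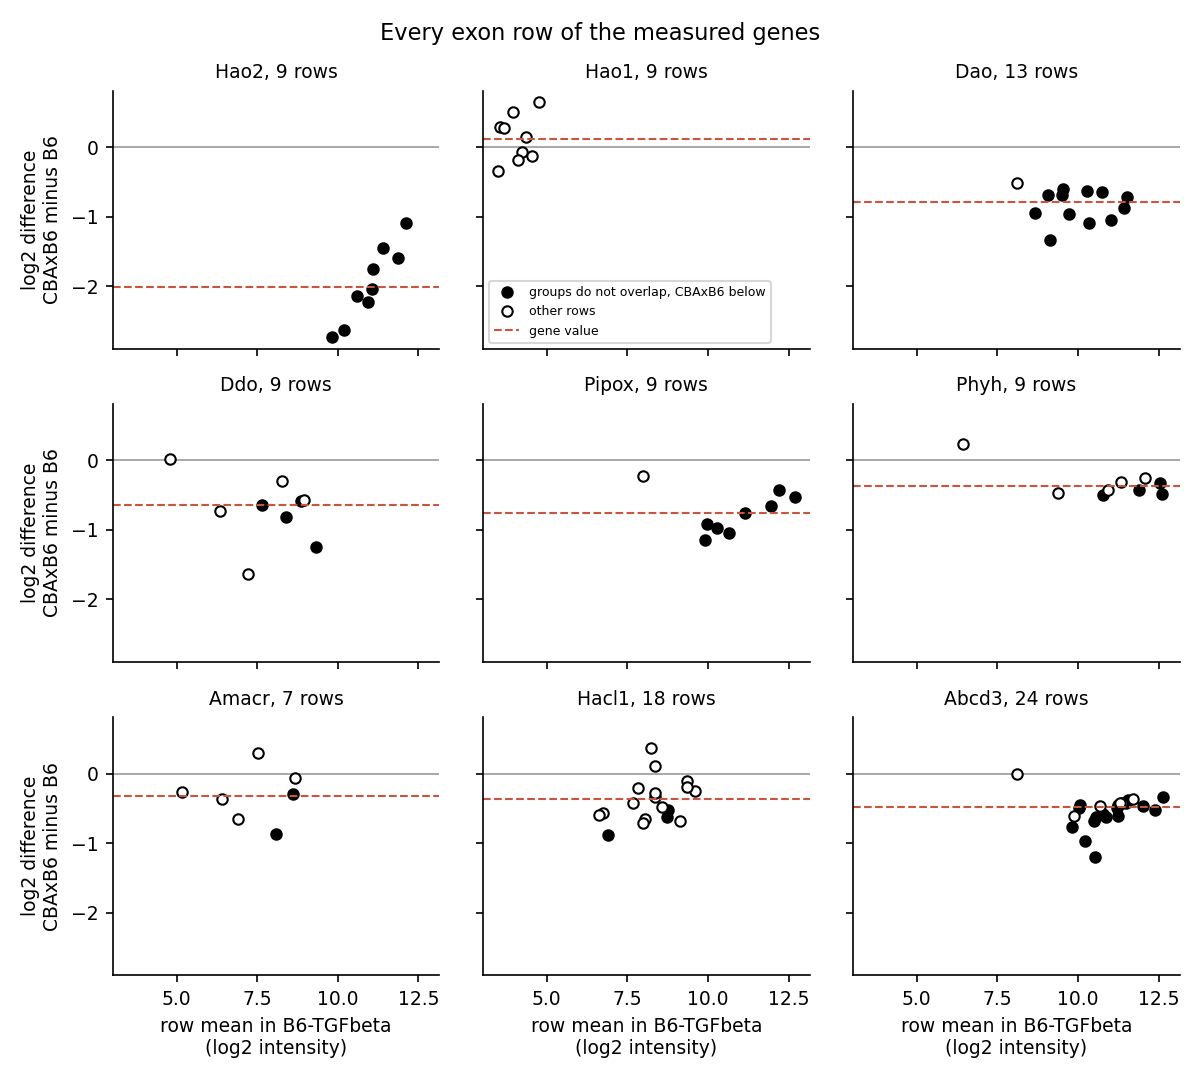
Log2 difference (CBAxB6-TGFbeta minus B6-TGFbeta, vertical axis) against the row's mean in B6-TGFbeta (log2 intensity, horizontal axis) for every row of the 9 genes, filled where the groups do not overlap with CBAxB6-TGFbeta below, with the gene value as a dashed line. All 9 rows of Hao2 are filled and lie between -2.73 and -1.10, and those of Hao1 lie on both sides of 0.

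Other genes of the same pathways were taken from 9 lists and adjusted over all genes, and 105 of 113 were measured. Of these, 33 were lower, Aoc1 alone was higher and 71 were not called, where 4.57% of all genes were lower and 3.08% higher. The median log2 difference was -0.27, against 0.02 for all genes. The lists were chosen with earlier results of these data known, so these counts and medians are a description and support nothing by themselves. In limma the count of lower list genes was 1, 0 and 0 without B6-TGFbeta replicate 1, 2 and 3, and that of all genes 36, 42 and 36. At an unadjusted p under 0.05, 43, 44 and 44 list genes were lower, and 2819, 3268 and 3237 of all genes passed in either direction. Without CBAxB6-TGFbeta replicate 4, 5 and 6 the count of lower list genes was 4, 3 and 14, and that of all genes 172, 71 and 335. With the gene values of all 6 arrays kept, 11 list genes were lower without B6-TGFbeta replicate 1, 22 without replicate 2 and 31 without CBAxB6-TGFbeta replicate 6. Of all genes 310, 543 and 861 were lower in these fits. On the brightest row of each gene 7 list genes and 282 of all genes were lower.

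**Figure D3:**
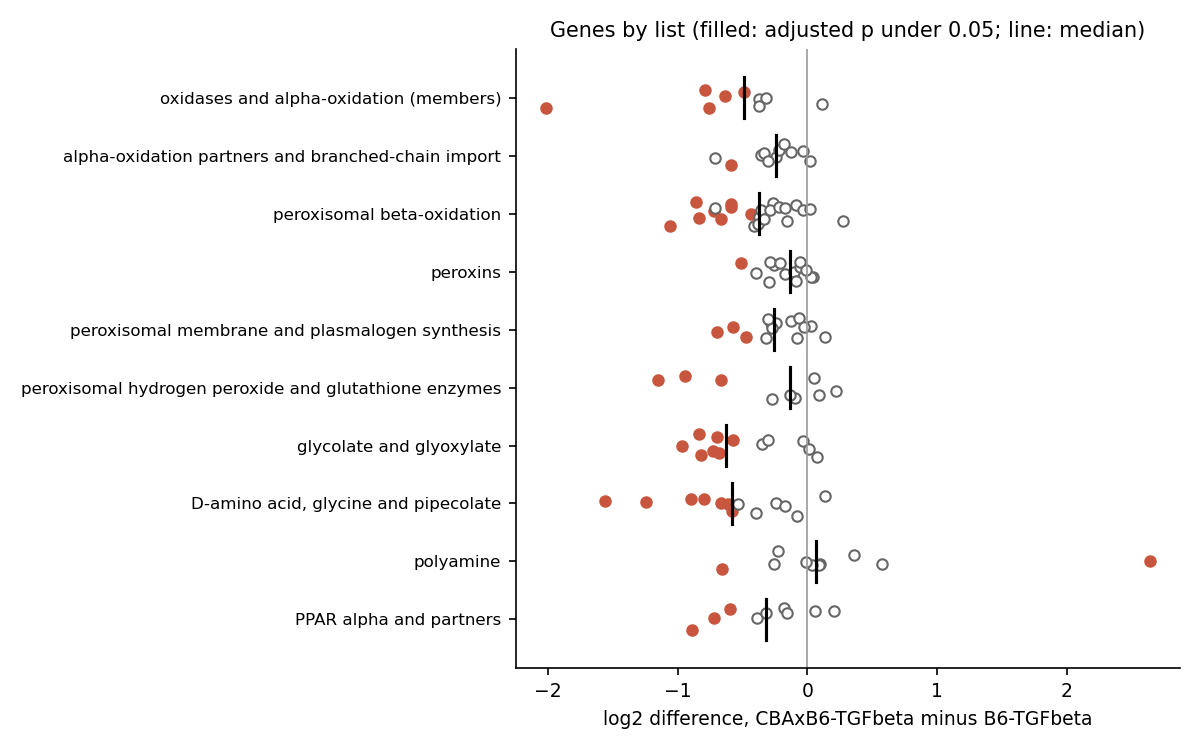
Log2 difference (CBAxB6-TGFbeta minus B6-TGFbeta, horizontal axis) of each measured gene by list, filled where adjusted p is under 0.05, with the median of each list as a vertical line; scatter within a list is for legibility. Medians run from -0.63 for glycolate and glyoxylate to 0.06 for the polyamine list, and the filled point at 2.64 is Aoc1.

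Among partners of alpha-oxidation and branched-chain import, 1 of 11 measured genes was lower and 10 were not called, and the median was -0.24. Slc27a2, which activates very long-chain and branched fatty acids, was the lower one, at 12.80 ± 0.08 in B6-TGFbeta and 12.21 ± 0.27 in CBAxB6-TGFbeta (SD, n = 3 each), which is a log2 difference of -0.59 (SE 0.14, limma adjusted p = 0.0347). The peroxisomal beta-oxidation list held 8 lower genes of 23, 15 that were not called and a median of -0.37. Ehhadh, the bifunctional enzyme of the pathway, had a log2 difference of -0.85 (SE 0.12, limma adjusted p = 0.00382). Decr2, the peroxisomal dienoyl-CoA reductase, and the thioesterase Acot3 were at -0.66 (SE 0.11) and -0.84 (SE 0.17). Acot12, a thioesterase that acts on acetyl-CoA in the cytosol, was at -1.06 (SE 0.13, limma adjusted p = 0.00243).

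Peroxins, the proteins that build peroxisomes and import their enzymes, were mostly not called: 1 of 14 was lower and the median was -0.14. Pex19, which escorts membrane proteins to the organelle, went from 8.42 ± 0.06 to 7.91 ± 0.02 (SD, n = 3 each), which is a log2 difference of -0.51 (SE 0.09, limma adjusted p = 0.0112), and its brightest row gave -0.14. In the list of peroxisomal membrane proteins and plasmalogen synthesis 3 of 14 genes were lower and 11 were not called, and the median was -0.26. The 3 were Pxmp4 (-0.70, SE 0.11), the channel protein Pxmp2 (-0.57, SE 0.13, and -0.31 on its brightest row) and Mpv17 (-0.47, SE 0.12), which is now placed in the mitochondrial membrane.

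A list of hydrogen peroxide and glutathione enzymes held 3 lower genes of 9 with a median of -0.13. It is mixed, since it also holds Xdh, Uox and Sod1, which produce hydrogen peroxide, and Ephx2 and Idh1, which do neither. Catalase (Cat), which consumes the peroxide that the oxidases make, stood at 11.15 ± 0.07 in B6-TGFbeta and 10.21 ± 0.08 in CBAxB6-TGFbeta (SD, n = 3 each), which is a log2 difference of -0.94 (SE 0.10, limma adjusted p = 0.000891), though its brightest row gave -0.40 and was not called. Prdx5, a peroxiredoxin of peroxisomes and mitochondria, was at -0.66 (SE 0.10). Gstk1, a glutathione transferase of the same organelles, was at -1.15 (SE 0.20).

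The list of glycolate and glyoxylate genes, which also holds genes of hydroxyproline breakdown and glycine cleavage, included 7 lower genes of 12, with a median of -0.63. Agxt2, a mitochondrial aminotransferase that can use glyoxylate, had a log2 difference of -0.97 (SE 0.15, limma adjusted p = 0.00651), and Prodh2, which opens hydroxyproline breakdown towards glyoxylate, had -0.82 (SE 0.12) and -1.26 on its brightest row. Amt and Gldc of the glycine cleavage system were at -0.73 (SE 0.11) and -0.70 (SE 0.13).

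The list of D-amino acid, glycine and pipecolate genes, which surrounds Dao, Ddo and Pipox, held 7 lower genes of 13 with a median of -0.58. Slc6a20b, an imino acid transporter of the brush border, fell from 10.16 ± 0.14 to 8.60 ± 0.34 (SD, n = 3 each), which is a log2 difference of -1.56 (SE 0.17, limma adjusted p = 0.001). Srr, which makes D-serine, was at -0.79 (SE 0.14). Dmgdh, which turns dimethylglycine into the Pipox substrate sarcosine, was at -0.90 (SE 0.15), and Shmt2, the mitochondrial serine hydroxymethyltransferase, at -0.67 (SE 0.13) and -1.05 on its brightest row.

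Of 10 polyamine genes 1 was lower, 1 was higher and 8 were not called, and the median was 0.06. Aoc1, the diamine oxidase that the array annotation calls Abp1, stood at 7.68 ± 0.15 in B6-TGFbeta and 10.32 ± 0.47 in CBAxB6-TGFbeta (SD, n = 3 each), which is a log2 difference of 2.64 (SE 0.21, limma adjusted p = 0.00028), but the brightest of its 5 rows gave -0.55. Slc3a2, a shared subunit of amino acid transporters, was lower by a log2 difference of -0.66 (SE 0.13).

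PPAR alpha is the receptor that switches on many peroxisomal oxidation genes, with RXR as its partner and PGC-1 as coactivators. Ppara itself was at 8.77 ± 0.21 in B6-TGFbeta and 8.05 ± 0.15 in CBAxB6-TGFbeta (SD, n = 3 each), which is a log2 difference of -0.72 (SE 0.13, limma adjusted p = 0.0128). Hnf4a, the nuclear receptor of proximal tubule and liver, was at -0.89 (SE 0.14) and at -0.38 on its brightest row, and Ppargc1a, which encodes PGC-1 alpha, at -0.60 (SE 0.14). These were the 3 lower genes of 9, and the median was -0.32. The others did not pass, with log2 differences of -0.39 for Ppargc1b, -0.32 for Rxra, -0.18 for Ppard, -0.16 for Rxrb, 0.06 for the bile acid receptor Nr1h4 and 0.20 for Pparg. On the brightest row Ppargc1b, Ppard and Rxrb were above 0 and Nr1h4 below it. Ppargc1b was called lower, at -0.65, when the mean of its rows was taken, and also with array weights and without the dimmest 25% of genes.

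Of the 25 called genes named from these lists, Aoc1 lost its call in 1 of the 6 fits that left out an array, and every other one lost it in 3 to 6 of them. With the gene values of all 6 arrays kept 14 lost the call in at least 1 such fit, Mpv17 in 6 and Slc27a2 and Ppargc1a in 5. Median centring also ended the calls of Slc27a2 and Ppargc1a. On the brightest row 17 lost the call and Aoc1 changed sign.

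Markers of several cell types moved with the groups. The mean level of 15 proximal tubule genes was 11.28, 11.14 and 11.12 in B6-TGFbeta and 9.79, 10.14 and 10.25 in CBAxB6-TGFbeta, and 12 of the 15 were called lower and none higher. For 8 genes of its straight segment the means were 7.32 to 7.65 and 6.43 to 7.28, with 3 lower. Genes of the loop of Henle and the distal tubule were lower in 5 of 6 cases, with means of 10.64 to 10.81 and 9.17 to 9.70. Injured tubule genes, such as Havcr1 and Krt20, had means of 7.86 to 7.98 in B6-TGFbeta and 9.10 to 9.73 in CBAxB6-TGFbeta, with 7 of 10 higher. In the macrophage list 5 of 6 were higher, with means of 7.16 to 7.50 and 8.30 to 8.91. Xist stood at 4.24 to 4.72 and the Y-linked Kdm5d at 8.51 to 8.78 on every array. Genes with male-biased kidney expression had means of 8.35 to 8.44 in B6-TGFbeta. In CBAxB6-TGFbeta replicates 4, 5 and 6 the means were 6.65, 7.34 and 8.09, and 2 of 5 genes were called lower. The genes of this list disagreed. Slc22a30 (-2.45) and Kap (-0.98) were the called ones, and Slc7a13, at -2.23, was not called. The dim Slco1a1, at 3.87 to 4.19 over the arrays, had a log2 difference of -0.18. Cyp2j13 went the other way, at 0.64, with every CBAxB6-TGFbeta array above every B6-TGFbeta array, and was not called. Among the CBAxB6-TGFbeta arrays replicate 4 was the lowest and replicate 6 the highest in the male-biased list. The proximal tubule, straight segment and loop of Henle lists had the same lowest and highest arrays, as did Hao2, Hacl1 and Abcd3. The straight segment and male-biased lists share Slc7a13 and Slco1a1, so their orders are not separate observations. Slc7a13 alone stood at 6.73, 9.09 and 10.13 in CBAxB6-TGFbeta replicates 4, 5 and 6. The other measured genes of the set had other orders, and replicate 6 was the lowest in Dao and Ddo. The part of any of these lists in the differences of the oxidases was not tested.

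Set against the proximal tubule list of the same array, the genes of the set differed in direction. The mean of the 15 genes was 11.18 in B6-TGFbeta and 10.06 in CBAxB6-TGFbeta, a log2 difference of -1.12. After each array's mean was subtracted, Hao2 stood at 0.06, -0.31 and -0.21 in B6-TGFbeta and at -1.32, -1.27 and -0.56 in CBAxB6-TGFbeta. It thus remained below in all 3 CBAxB6-TGFbeta arrays, by a mean of -0.90. Dao and Ddo, at 0.33 and 0.48, overlapped between the groups. The remaining genes lay above in every CBAxB6-TGFbeta array, by 0.36 for Pipox, 0.64 for Abcd3, 0.75 for Phyh, 0.75 for Hacl1, 0.80 for Amacr and 1.23 for the dim Hao1. No test was made of these relative values, which depend on the 15 genes taken as the base. The base itself had a log2 difference of -1.12, so a gene that fell less has a higher relative mean by the subtraction alone. Its 15 genes were uneven, from -2.57 for Miox to -0.05 for Keg1, and Hao2 at -2.02 lay within their range. Hao1 had a log2 difference of 0.11 before the subtraction.

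**Figure D4:**
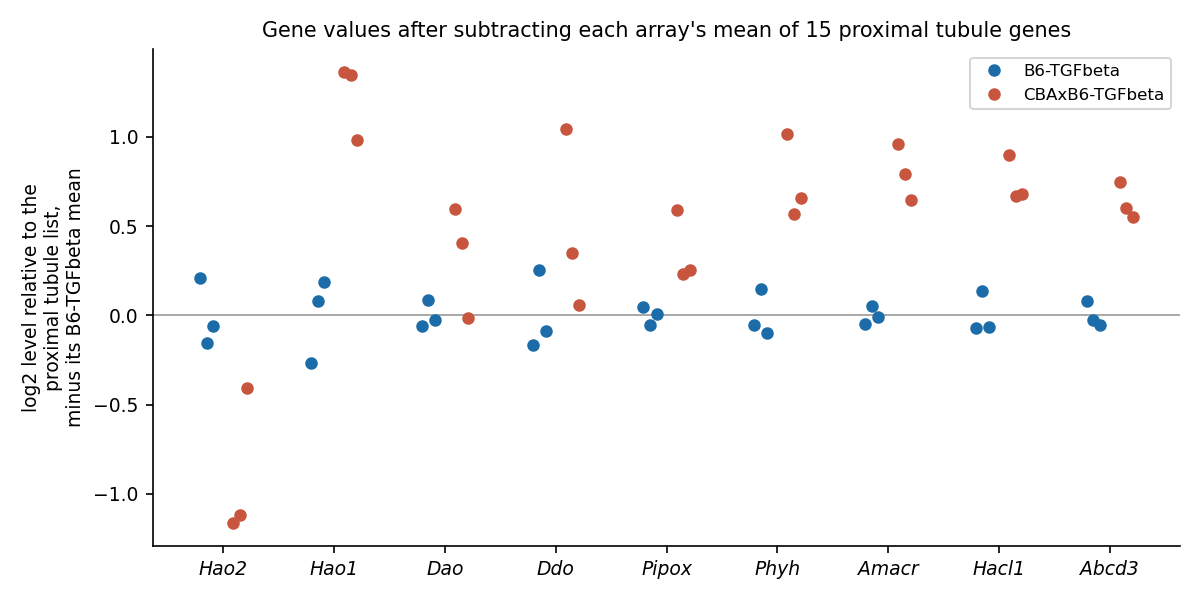
Gene value minus the mean of 15 proximal tubule genes on the same array, shown relative to its B6-TGFbeta mean (log2 units, vertical axis), for each of the 9 genes and 6 arrays. Hao2 lies below 0 in all 3 CBAxB6-TGFbeta arrays, Dao and Ddo overlap between the groups and the other 6 genes lie above their B6-TGFbeta arrays.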

How the data were processed

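The deposited table holds log2 intensities of 6 Affymetrix mouse arrays, 1 row per exon probe set, which the authors made with RMA and Partek per the submitters' processing notes. Not given in the sources used here are the settings, how arrays were normalized, and the build of the annotation. Of 241576 rows, 212097 carried 1 symbol, and the rows of each symbol were summarised by Tukey's median polish into 20416 gene values. Differences were fitted with limma (version 3.58.1, R 4.3.3) with 1 group term and moderated variances over all 6 arrays, and two-sided p-values were adjusted after Benjamini and Hochberg over all genes, or over all rows, and called under 0.05. The calculation was tested on simulated data. The number of arrays limits the precision.

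The genes of the set, the pathway lists and the marker lists were chosen with earlier results of these data known. All genes of the set and every gene of the PPAR alpha list were named. So were up to 4 called genes of each pathway list with the smallest p, and marker genes where 1 array stands apart. The marker genes Umod, Havcr1, Krt20, Xist, Kdm5d, Kap, Slc22a30, Cyp2j13, Slc7a13, Slco1a1, Miox and Keg1 were named after their values were seen. Symbols are those of the array annotation, matched through RefSeq synonyms (GRCm38.p6), and 8 of the 113 listed pathway genes were not analysed here.

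Alternatives were median centring or a second quantile normalization, the brightest row or the row mean as the gene value, removal of the dimmer 50% of rows or the dimmest 25% of genes, trended, robust or no moderation, array weights, each array left out in turn, and B6-TGFbeta replicate 3 as the only B6 array. Leaving out an array with the gene values of all 6 kept was added after seeing the data.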

Additional observations from a re-analysis of the deposited data

How the results depend on the processing

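The direction of the 9 genes was the same in every fit run. In the fit over all arrays 1562 genes were called (934 lower, 628 higher), with 1336 rows, 5 genes of the set, 5 of their rows, and 33 lower and 1 higher gene of the pathway lists. With the brightest row of each gene these became 617 genes (282 lower, 335 higher), 2 of the set with a median of -0.33, and 7 lower and 0 higher list genes. Without moderation they were 63 genes (40 lower, 23 higher), 2 rows, 0 genes and 0 rows of the set, and 1 lower and 0 higher list genes. Trended variances gave 4886 rows, 25 of them of the set, and 1634 genes (965 lower, 669 higher), with 6 genes of the set called. Array weights gave 2243 genes (1269 lower, 974 higher), with 7 genes of the set called. Median centring called 4 of the set, without Abcd3, and turned the split of all genes to 805 lower and 752 higher. With B6-TGFbeta replicate 3 as the only B6 array, a fit that assumes it varies like the other group, 40 genes (15 lower, 25 higher), 0 rows, 0 genes and 0 rows of the set and 0 lower list genes were called.

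Leaving out 1 array at a time gave 57 to 554 genes (36 to 335 lower, 21 to 219 higher), 0 to 331 rows, 0 to 3 genes and 0 to 4 rows of the set with a median of -0.53 to -0.38, and 0 to 14 lower and 0 to 1 higher list genes. With the gene values of all arrays kept, which was chosen after seeing the data, the ranges were 494 to 1550 genes (310 to 861 lower, 184 to 689 higher), 3 to 4 genes of the set with a median of -0.54 to -0.40, and 11 to 31 lower list genes. On the brightest row Aoc1 (Abp1 on the array) turned to -0.55, Ppargc1b to 0.044, Ppard to 0.11, Rxrb to 0.25 and Nr1h4 to -0.017. Nr1h4 also turned to -0.080 without the dimmer 50% of rows and to -0.024 with array weights, and lay between -0.032 and 0.11 with 1 array left out and between -0.02 and 0.15 with the gene values kept, below 0 without CBAxB6-TGFbeta replicate 6 in both. The cause of these changes was not tested. Hao1 could not be fitted without the dimmest 25% of genes, which include it. No paired analysis was possible because the groups share no replicate numbers. The number of arrays, 3 a group, and the low intensity of Hao1 limit what can be read.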
